A study of Rattus norvegicus with 6 samples.

Results

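The 9 genes described here were HMGCS1, IDI1, FDPS, FDFT1, SQLE, LSS, CYP51, DHCR7 and INSIG1, taken by gene symbol from the 17648 rows of the expression matrix. The first 8 encode enzymes of cholesterol synthesis, while INSIG1 encodes a regulator of the pathway and not an enzyme. All 9 reached a mean of 1 over the 6 libraries, the condition for testing, as did 8495 genes in total. Neurons were cultured from the spinal cord of neonatal Sprague-Dawley rats and treated with Ara-C to raise their purity, with 3 libraries transfected with a control siRNA (Glu + siR-Con) and 3 transfected with an siRNA against galectin-3 (Glu + siR-GAL3). After 3 days in culture both groups were exposed to 10 μM glutamate for 1 h and then kept in glutamate-free medium for 16 h. The treatment labels instead gave glutamate to the Glu + siR-GAL3 libraries alone and saline to the Glu + siR-Con libraries, and called the siRNA a knockout. If these labels are right, the glutamate and the siRNA cannot be told apart. Nothing in the labels said that the libraries came from separate cultures, so p-values measure the spread between these libraries, which may be technical.

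Cells build cholesterol from acetyl-CoA through the mevalonate pathway, in which HMGCS1 makes HMG-CoA. IDI1 and FDPS assemble the isoprenoid chain, FDFT1 commits it to sterols by making squalene, SQLE and LSS turn squalene into lanosterol, and CYP51 and DHCR7 act on the way from lanosterol to cholesterol. When sterols are plentiful INSIG1 holds the SCAP and SREBP complex in the endoplasmic reticulum, so that the SREBP factors do not switch on these genes, and INSIG1 is itself one of their targets. The central nervous system makes nearly all of its own cholesterol, with astrocytes and myelinating oligodendrocytes as major producers.

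The values were derived from FPKM by the authors and were on a linear scale per transcript length. They were batch-corrected and standardized after that step, so an order of levels between genes holds for these corrected values only, and the depth of each library is unknown. Exactly equal values divided the libraries into 3 sets, siR-Con replicate 1 with siR-GAL3 replicate 1, siR-Con replicates 2 and 3 with siR-GAL3 replicate 3, and siR-GAL3 replicate 2 alone. The last library stood apart on the first principal component, which held 65.2% of the variance. The targeted gene, LGALS3, was 77.4, 54.4 and 62.4 in siR-Con replicates 1 to 3 and -1.64, 32.3 and 18.5 in siR-GAL3 replicates 1 to 3, lower in every siR-GAL3 library. By limma its log2 fold change was -2.91 with a standard error of 1.20 (unadjusted p = 0.0462 and adjusted p = 0.571, by Benjamini-Hochberg over all genes tested). The size of the LGALS3 difference rested on siR-GAL3 replicate 1, whose negative value was set to 0, since it was -1.35 without that library and -4.03 with a pseudocount of 0.1. Its unadjusted p was above 0.05 in 6 of 15 alternatives, with each siR-Con library left out among them (0.0840 to 0.109 in limma). The neuronal label was only in part met by the markers. Of 9 neuron markers listed, 8 were in the matrix and 4 of these had a mean below 1. RBFOX3 at 0.383 and NEFL at 0.343 were among these 4, while MAP2 at 16.9 and TUBB3 at 4.63 were the highest. The astrocyte gene GFAP had a mean of 589.6 and the myelin gene MBP a mean of 713. The lowest of the astrocyte and oligodendrocyte markers were ALDH1L1 at 3.21 and OPALIN at 1.99. The summed level of the neuron markers was 22.8 to 28.8 over the libraries, against 751 to 1012 for the 8 astrocyte markers and 1056 to 1381 for the 8 oligodendrocyte markers. GFAP and MBP were the largest parts of the astrocyte and oligodendrocyte sums.

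Knockdown of GAL3 went with little difference in the cholesterol synthesis genes as a group. Of the 9 genes, 4 were higher and 5 were lower in Glu + siR-GAL3, and the median log2 fold change was -0.0026 (quartiles -0.13 and 0.05). Over all genes tested the median was -1.2e-05, with quartiles of -0.10 and 0.10. None of the 9 had an adjusted p under 0.05 in limma, as for 0% of all genes tested, and their adjusted p ranged from 0.437 to 0.990. At an unadjusted p under 0.05 there was 1 gene of the 9, HMGCS1, which was lower. Over all genes tested, 4.25% were lower and 4.41% were higher at this threshold. The groups did not overlap for HMGCS1 and SQLE, both lower in siR-GAL3, whereas 10.3% of all genes tested were lower without overlap and 10.3% were higher. With 9 genes, counts of 1 and 2 are too small to be set apart from these shares. For the 8 genes other than LSS, the 95% intervals of the log2 fold changes lay between -0.48 and 0.42, so a doubling or a drop to 50% lay outside them. These intervals are on log2(value + 1) of the corrected values and treat the libraries as independent, which was not tested.

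**Figure D1:**
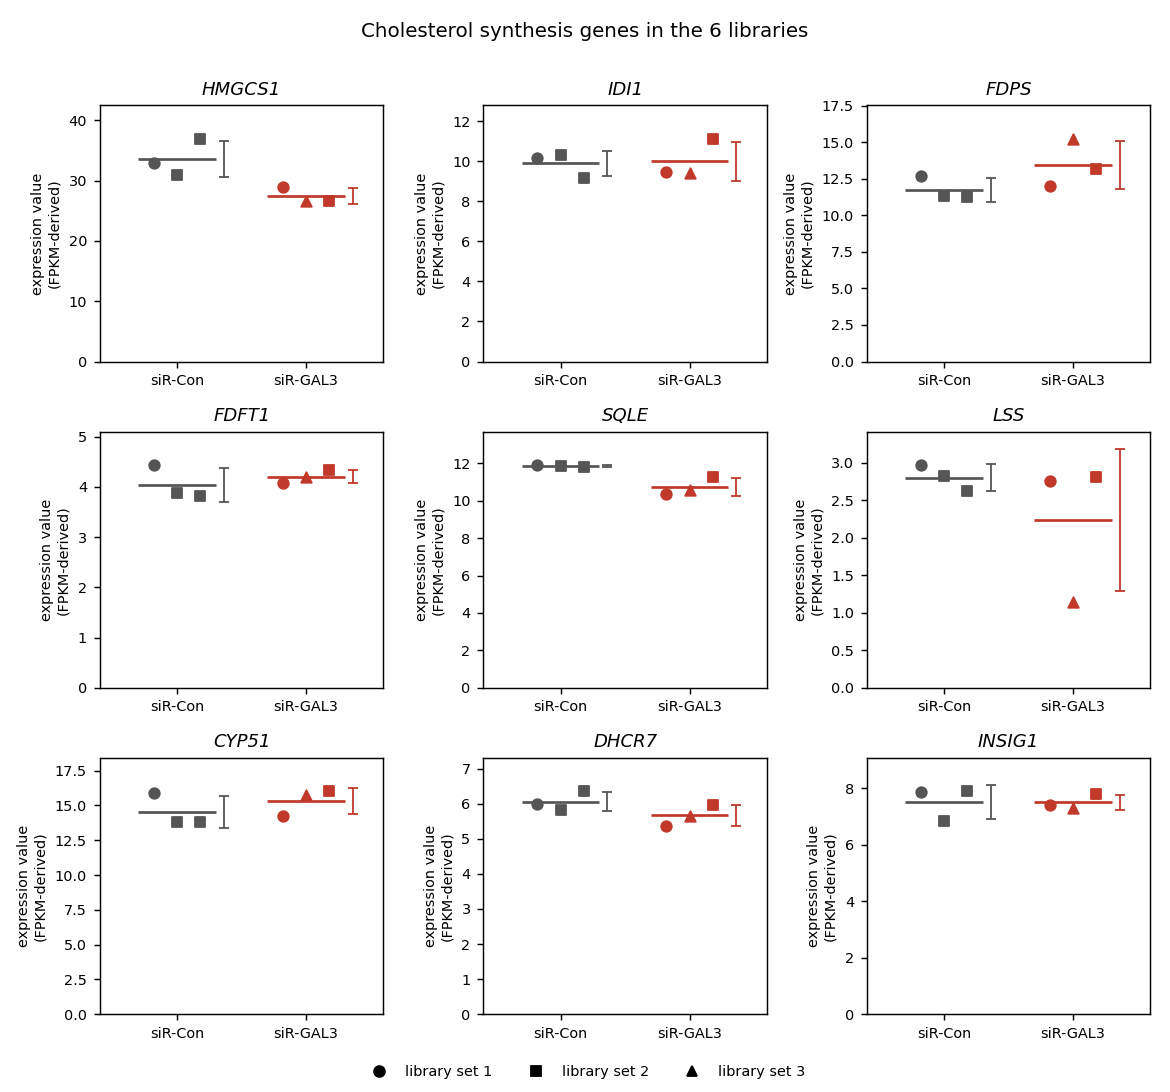
Expression values (FPKM-derived, linear axis from 0) of the 9 genes in each library, with the group mean as a line, the SD of 3 libraries as a bar and the library set as the point shape. HMGCS1 and SQLE were lower in each siR-GAL3 library than in each siR-Con library, the other 7 genes overlapped, and LSS was at 1.14 in siR-GAL3 replicate 2.

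The 9 genes spanned a wide range of corrected values. HMGCS1 was the most abundant, with a mean of 30.5 over the 6 libraries, and every one of its values lay above those of the next gene. CYP51 (14.9), FDPS (12.6), SQLE (11.3) and IDI1 (9.94) followed, and each of these overlapped with its neighbour in this order. INSIG1 (7.50), DHCR7 (5.86), FDFT1 (4.12) and LSS (2.52) came next, each with all its values below those of the gene before it. The levels did not descend in the order of the pathway, since FDFT1 lay below both FDPS before it and SQLE after it. FDPS, IDI1 and CYP51 have pseudogenes in the rat RefSeq annotation. The authors do not say how reads shared with such copies were counted, so the levels of these genes are uncertain.

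HMGCS1, the cytosolic HMG-CoA synthase, showed the clearest difference. It was 32.9, 31.0 and 36.9 in siR-Con replicates 1 to 3 and 29.0, 26.6 and 26.7 in siR-GAL3 replicates 1 to 3. The groups were separate, with a gap between 29.0 and 31.0 (two-sided p = 0.1 by exact permutation, as low as 3 libraries per group can give). HMGCS1 averaged 33.6 ± 3.04 (SD, n = 3) in siR-Con against 27.4 ± 1.36 (SD, n = 3) in siR-GAL3, 18.3% lower in Glu + siR-GAL3. The log2 fold change was -0.28 (standard error 0.09, 95% interval -0.48 to -0.08, unadjusted p = 0.0140 and adjusted p = 0.437 in limma). Without siR-Con replicate 3, which had the highest value, it was -0.21 with an unadjusted p of 0.0574 in limma. In a bulk sample, less RNA per cell and fewer cells that express a gene cannot be told apart. Of the astrocyte markers, 6 of 8 were also lower and 4 of these at an unadjusted p under 0.05 in limma. The share of all genes tested that were lower at this threshold was 4.25%. The summed level of the 8 markers was 867 to 1012 in siR-Con and 751 to 808 in siR-GAL3. Among them GFAP had a log2 fold change of -0.31 and the glutamate transporter gene SLC1A2 one of -0.45. The groups overlapped for SLC1A2, and 2 of the 8 markers were higher in siR-GAL3. The count of 4 at an unadjusted p under 0.05 in limma was 1 without siR-Con replicate 2, siR-Con replicate 3 or siR-GAL3 replicate 3. Of the 8495 genes tested, 350, 344 and 575 passed it in those fits, in either direction, against 736 in the full fit. The part of these cells in the HMGCS1 difference was not tested.

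The promoters of HMGCS1 and FDPS are shown because these genes had the lowest and the highest log2 fold change of the 9. Both come from a table of RefSeq promoters (rat assembly GRCr8), in which 7 of the 9 genes were matched, and run from 250 bases before to 50 bases after the start, 5′ to 3′ on the strand of the gene. HMGCS1 lies on the plus strand at chr2:53382054-53382353 and FDPS on the minus strand at chr2:176804767-176805066. Capitals mark the box CCAAT, bound by the factor NF-Y that works together with SREBP at sterol genes, which reads ATTGG where it lies on the other strand.
HMGCS1: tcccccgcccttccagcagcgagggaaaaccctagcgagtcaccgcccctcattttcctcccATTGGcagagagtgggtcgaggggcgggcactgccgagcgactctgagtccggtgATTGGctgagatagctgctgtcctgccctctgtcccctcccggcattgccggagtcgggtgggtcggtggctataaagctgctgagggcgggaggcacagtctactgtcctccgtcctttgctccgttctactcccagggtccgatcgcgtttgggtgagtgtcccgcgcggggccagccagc
FDPS: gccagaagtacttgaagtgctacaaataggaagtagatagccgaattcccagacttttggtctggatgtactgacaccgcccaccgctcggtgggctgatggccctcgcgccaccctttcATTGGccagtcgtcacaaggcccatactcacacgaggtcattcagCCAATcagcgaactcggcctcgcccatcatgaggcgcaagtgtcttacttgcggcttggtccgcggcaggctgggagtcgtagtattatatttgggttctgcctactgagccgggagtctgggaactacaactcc
HMGCS1 held this box 188 and 133 bases before the start, and FDPS 130 and 85 bases before it. At least 1 CCAAT on either strand was found in 5 of the 7 promoters (HMGCS1, IDI1, FDPS, LSS and INSIG1), in 37.5% of all 33469 RefSeq promoters and in 38.7% of those of 6845 genes tested. The Sp1 box GGGCGG was found in 6 of the 7, against 33.1% of all promoters and 65.7% of those of genes tested. The string TCACNCC, a core of the sterol regulatory element, was in 1 of the 7, CYP51, against 14.6% of all promoters. CACCCCAC was in 0 against 2.70%, and the E-box CACGTG was in 1, INSIG1, against 6.42%. Only matches to these strings were counted, so a sterol regulatory element of another sequence would be missed. No match to one of these 5 motifs overlapped a match to another in the 7 promoters.

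SQLE, the squalene epoxidase that acts at the second slow step of the pathway, was the other gene without overlap. It was 11.9, 11.8 and 11.8 in siR-Con replicates 1 to 3, which differed less than for any other of the 9 genes, and 10.3, 10.6 and 11.3 in siR-GAL3 replicates 1 to 3. SQLE averaged 11.8 ± 0.0595 (SD, n = 3) in siR-Con against 10.7 ± 0.483 (SD, n = 3), and the log2 fold change was -0.13 (standard error 0.06, 95% interval -0.28 to 0.02, unadjusted p = 0.0785 and adjusted p = 0.585 in limma). The highest siR-GAL3 value, 11.3, was close to the lowest siR-Con value, 11.8. Without siR-GAL3 replicate 2 the log2 fold change was -0.12 (unadjusted p = 0.0486 and adjusted p = 0.304 in limma). In that fit 1388 of the 8495 genes tested had an unadjusted p under 0.05 in limma, against 736 in the full fit.

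FDPS, which makes farnesyl diphosphate, was 12.7, 11.3 and 11.3 in siR-Con replicates 1 to 3 and 12.001, 15.2 and 13.2 in siR-GAL3 replicates 1 to 3. The highest value was that of the library alone in its set, and siR-GAL3 replicate 1 lay below siR-Con replicate 1. The log2 fold change was 0.18 (standard error 0.10, 95% interval -0.06 to 0.42, unadjusted p = 0.116 and adjusted p = 0.590 in limma). It was 0.25 without siR-GAL3 replicate 1 (unadjusted p = 0.0433 and adjusted p = 0.331 in limma) and 0.09 without siR-GAL3 replicate 2. Without siR-GAL3 replicate 1, 1249 of the 8495 genes tested had an unadjusted p under 0.05 in limma, against 736 in the full fit.

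LSS, the lanosterol synthase, was 2.97, 2.82 and 2.62 in siR-Con replicates 1 to 3 and 2.75, 1.14 and 2.81 in siR-GAL3 replicates 1 to 3. One library alone, siR-GAL3 replicate 2, was far below the rest, and the other siR-GAL3 libraries lay within the range of siR-Con. The log2 fold change of LSS was -0.28 (standard error 0.22, 95% interval -0.79 to 0.23, adjusted p = 0.626 in limma) with all 6 libraries and -0.0068 without siR-GAL3 replicate 2. Its spread within groups was wider than that of 97.0% of all genes tested, on the log2(value + 1) scale.

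CYP51, the lanosterol demethylase, was 15.9, 13.8 and 13.8 in siR-Con replicates 1 to 3 and 14.3, 15.7 and 16.0 in siR-GAL3 replicates 1 to 3. Replicates 2 and 3 of siR-Con were listed at exactly the same CYP51 value and belong to one library set. The groups overlapped and the log2 fold change was 0.08 (standard error 0.08, 95% interval -0.12 to 0.27).

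IDI1, the isopentenyl diphosphate isomerase, ranged from 9.17 to 10.3 in siR-Con and from 9.39 to 11.1 in siR-GAL3, with a log2 fold change of 0.01 that lay between -0.06 and 0.05 as each library was left out. FDFT1, the squalene synthase, ranged from 3.82 to 4.43 and from 4.08 to 4.33, with a log2 fold change of 0.05. DHCR7, which reduces the sterol ring in the last step of one branch, ranged from 5.84 to 6.35 and from 5.37 to 5.98, with a log2 fold change of -0.08. For the sterol sensor INSIG1 the ranges were 6.83 to 7.88 and 7.28 to 7.79, with a log2 fold change of -0.0026 (95% interval -0.18 to 0.18) that was 0.0117 when blocked on library set. None of these 4 genes separated the groups, and INSIG1, a target of the same SREBP factors as HMGCS1, had the smallest difference of the 9. Whether the fold changes of HMGCS1 and INSIG1 differ from each other was not tested.

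**Figure D2:**
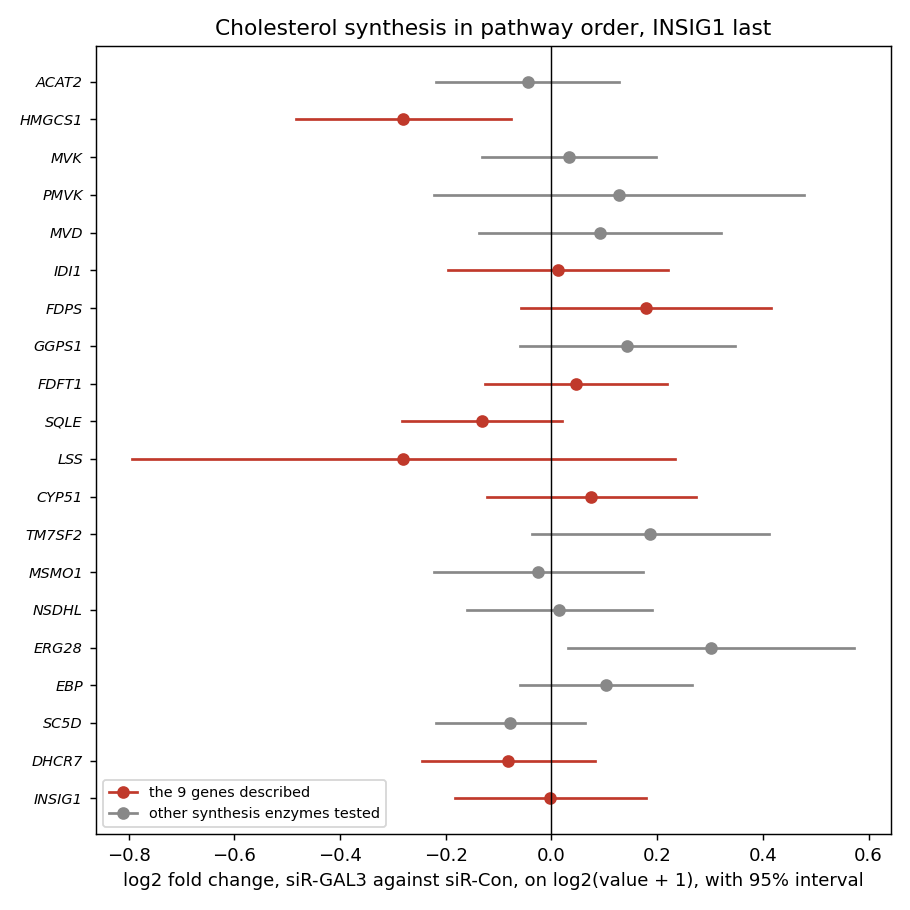
Log2 fold changes (Glu + siR-GAL3 against Glu + siR-Con, on log2(value + 1)) with 95% intervals from limma for the 9 genes and 11 of the 13 other synthesis enzymes tested, from the first step down, with INSIG1 last. The intervals of HMGCS1 (-0.48 to -0.08) and ERG28 (0.03 to 0.57) left out 0, and those of the other genes plotted included it.

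The genes were then compared within the library sets, where an offset shared by a set would cancel. Whether the libraries of a set share an offset was not tested. In the first set, of 1 library per group, all 9 genes were lower in siR-GAL3, with log2 differences from -0.19 for SQLE to -0.07 for FDPS. Over all genes tested 52.9% were lower in this pair and the median was -0.0078. In the second set, of 2 siR-Con libraries and 1 siR-GAL3 library, 3 of the 9 genes were lower and 6 were higher. Their log2 differences ran from -0.33 for HMGCS1 to 0.21 for FDPS. In this set 49.8% of all genes tested were lower, and the median was 0.00028. Lower in both sets were HMGCS1 (-0.18 and -0.33), SQLE (-0.19 and -0.06) and DHCR7 (-0.13 and -0.02). The first set rested on a single pair of libraries, siR-Con replicate 1 being the highest library for 3 of the genes, and neither set allows a test. When the fit was blocked on library set, HMGCS1 had a log2 fold change of -0.27 (unadjusted p = 0.0198, adjusted p = 0.254 in limma). In that fit siR-GAL3 replicate 2, alone in its set, does not enter the group difference.

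**Figure D3:**
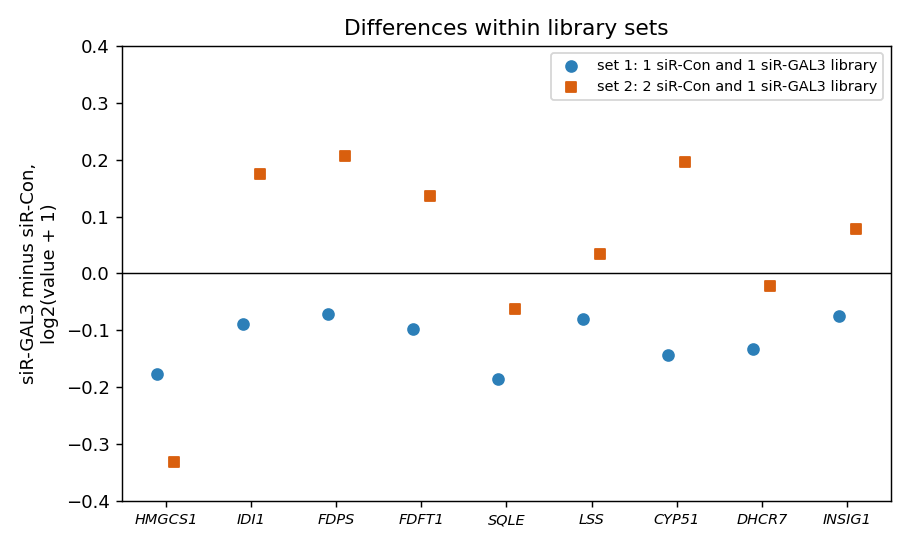
Difference of siR-GAL3 minus siR-Con on log2(value + 1) for each of the 9 genes within the 2 library sets that held both groups, 1 point per gene and set. All points of set 1 lie below 0, while in set 2 HMGCS1, SQLE and DHCR7 lie below 0 and the other 6 lie above.

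Summed over the 9 genes, the level was 104.8, 97.6 and 103.7 in siR-Con replicates 1 to 3 and 94.7, 95.9 and 99.1 in siR-GAL3 replicates 1 to 3, so that the groups overlapped. The libraries did not order the same way in each gene. Of the highest values of the 9 genes, siR-Con replicates 1 and 3 held 3 each, siR-GAL3 replicate 3 held 2 and siR-GAL3 replicate 2 held 1. Of the lowest values, siR-Con replicate 3 held or shared 4, the one for CYP51 being equal in siR-Con replicate 2. The genes whose log2(value + 1) followed the mean z-score of the 9 genes most closely over the 6 libraries were PRR11 (Pearson r = 0.97), RANBP9 (0.94), RHBDF1 (0.94), NCLN (0.93) and PTPN9 (0.93). They were picked as the highest of all genes tested over only 6 points, which share library sets, so these coefficients describe the libraries and carry no test. For all 5 the groups overlapped.

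The other enzymes of the pathway gave a like picture. Of 15 listed, 14 were in the matrix and 13 could be tested, 8 of them higher and 5 lower, with a median log2 fold change of 0.03. None had an adjusted p under 0.05 in limma. At an unadjusted p under 0.05, 1 was higher and 0 were lower, against 4.41% and 4.25% of all genes tested. The gene at an unadjusted p under 0.05 was ERG28, a scaffold of the enzymes that remove methyl groups from the sterol ring, at 1.76, 1.64 and 2.27 in siR-Con and 2.35, 3.02 and 2.31 in siR-GAL3. Its groups came close, and its log2 fold change was 0.30 (standard error 0.11, unadjusted p = 0.0339, adjusted p = 0.535 in limma). For ERG28 the unadjusted p in limma was 0.0629 when blocked on library set (log2 fold change 0.22), 0.0572 with a replicate block, 0.101 without siR-Con replicate 1 and 0.118 without siR-Con replicate 2. SC5D, the sterol desaturase just before DHCR7, was 6.11, 6.25 and 6.38 in siR-Con and 5.87, 5.81 and 5.91 in siR-GAL3, lower without overlap but at an unadjusted p of 0.232 in limma. Without siR-GAL3 replicate 2, 5 of the 13 were higher and 8 were lower, and the median was -0.02.

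Among 9 genes of SREBP control, 8 were tested, 3 higher and 5 lower, with a median log2 fold change of -0.05 and none at an unadjusted p under 0.05 in limma. Without siR-GAL3 replicate 2 the direction turned, with 5 higher, 3 lower and a median of 0.01. SREBF2, which encodes the SREBP that drives cholesterol genes, had a log2 fold change of -0.08 (standard error 0.10), which was 0.00141 when blocked on library set. SCAP, its escort to the Golgi, had one of -0.16 and INSIG2 one of 0.14, the latter higher in each siR-GAL3 library (1.28 to 1.42) than in each siR-Con library (1.03 to 1.25). Of 11 genes of sterol uptake and transport, 9 were tested, 2 higher and 7 lower, with a median of -0.09 that was -0.0045 without siR-GAL3 replicate 2. LIPA, the lysosomal acid lipase that frees cholesterol from its esters, was 7.61, 8.15 and 7.99 in siR-Con and 7.26, 6.83 and 6.74 in siR-GAL3, with a log2 fold change of -0.17 (unadjusted p = 0.0382, adjusted p = 0.542 in limma). The unadjusted p of LIPA was 0.120 with a replicate block, and 0.0553 to 0.133 without any one siR-Con library or siR-GAL3 replicate 3. STARD4, a sterol carrier, had a mean below 1.

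The fatty acid synthesis genes, part of which share the SREBP factors, leaned lower than the cholesterol genes. Of 12 listed, 11 were tested, 10 of them lower, with a median log2 fold change of -0.22 against -0.0026 for the 9 cholesterol genes. This difference between the lists was not tested, and without siR-GAL3 replicate 2 the median was -0.08, with 7 of 11 lower. At an unadjusted p under 0.05 were ELOVL5, a fatty acid elongase, and ME1, the malic enzyme that supplies NADPH. Both were lower, as were 4.25% of all genes tested at this threshold. ELOVL5 was 19.7, 19.0 and 18.3 in siR-Con and 16.5, 13.4 and 15.2 in siR-GAL3 (log2 fold change -0.32, unadjusted p = 0.00853, adjusted p = 0.357 in limma). ME1 was 17.7, 19.7 and 18.7 in siR-Con and 14.8, 16.1 and 16.7 in siR-GAL3 (log2 fold change -0.23, adjusted p = 0.499 in limma). The unadjusted p of ME1 in limma was 0.0206 in the full fit, 0.0879 without siR-Con replicate 2, 0.0625 without siR-Con replicate 3 and 0.0715 without siR-GAL3 replicate 1. In both genes every siR-GAL3 value lay below every siR-Con value, and in neither did the adjusted p pass.

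**Figure D4:**
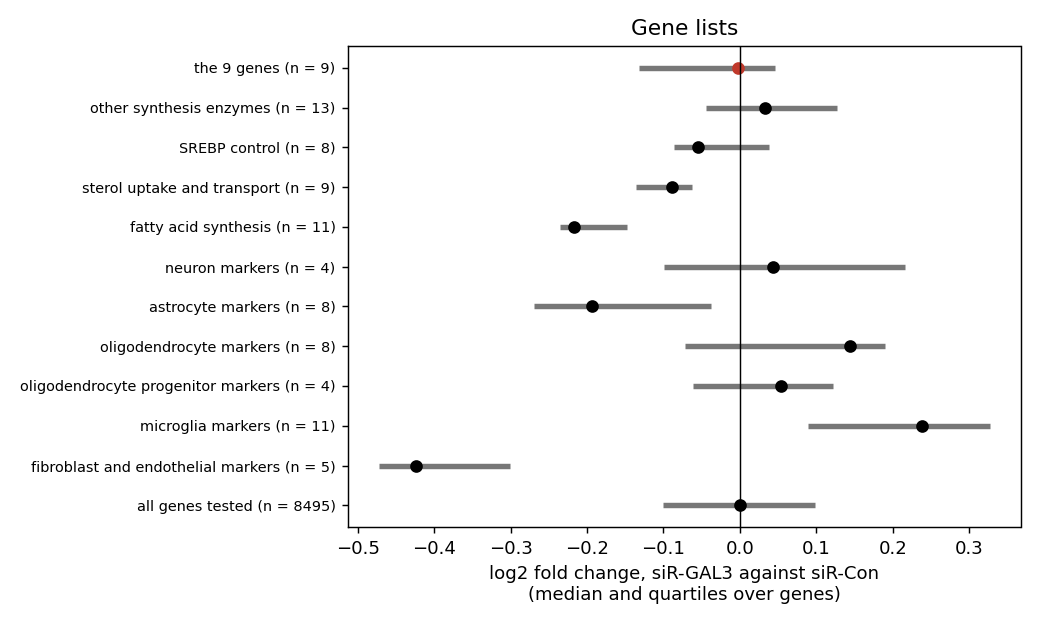
Median (point) and quartiles (bar) of the log2 fold changes (Glu + siR-GAL3 against Glu + siR-Con) over the tested genes of each list, with the number of genes, and over all genes tested. The 9 cholesterol genes centre on -0.0026, the fatty acid synthesis genes on -0.22, the astrocyte markers on -0.19 and the microglia markers on 0.24.

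Markers of other cells also differed between the groups in part. The 11 microglia markers tested were all higher in Glu + siR-GAL3 (median log2 fold change 0.24, summed level 112 to 134 in siR-Con and 144 to 163 in siR-GAL3), and 5 of them had an unadjusted p under 0.05 in limma, with CD68, AIF1 and C1QC having the smallest p. Without siR-Con replicate 1, 7 of the 11 were higher, and without siR-GAL3 replicate 1, 8 were. In either fit, and also without siR-Con replicate 3, 3 markers had an unadjusted p under 0.05 in limma. Of the 8495 genes tested, 517, 1249 and 344 passed it in these fits, in the order given, against 736 in the full fit. Without siR-GAL3 replicate 2, 6 had an unadjusted p and 3 an adjusted p under 0.05 in limma, as had 1388 and 167 of all genes tested. Blocking on library set gave 6 and 2, with 1174 and 106 of all genes tested. The 8 oligodendrocyte markers had a median of 0.14, with 5 higher, 3 lower and all overlapping between groups, and the 4 progenitor markers tested had one of 0.05, which was -0.04 without siR-GAL3 replicate 3 and 0.16 without siR-GAL3 replicate 2. Of the fibroblast and endothelial markers the 5 that could be tested were COL1A1, COL3A1, DCN, LUM and PDGFRB, none of them endothelial, and 4 of these were lower, with a median of -0.42 and COL3A1 and COL1A1 at -0.50 and -0.42. Of the 4 neuron markers tested 2 were higher and 2 lower, and STMN2 had the smallest p, with a log2 fold change of 0.33. The part of these cells in the values of the cholesterol genes was not tested.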

How the data were processed

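RNA of cultured rat spinal cord neurons was sequenced in 3 Glu + siR-Con and 3 Glu + siR-GAL3 libraries. The authors mapped reads with STAR, counted them per gene with HTSeq, estimated FPKM, and then removed batch effects, standardized and corrected within groups with tools that are not named. The deposited values are therefore a score on a linear scale, with 3.86% of 105888 values below 0, and the depth is unknown. The genome build is not given in the sources used here. The supplement describes polyadenylated RNA and the labels ribosomal depletion.

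Negative values were replaced by 0 before log2(value + 1), and limma 3.58.1 (R 4.3.3) with an intensity trend was run on the 8495 genes whose mean reached 1. A fold change on this scale understates that of low genes. P-values were adjusted by Benjamini-Hochberg over all genes tested. Single genes had an exact permutation test. The fit was tested on simulated data with independent libraries and no library sets, so that test does not cover the sets found here. Library sets joined libraries sharing at least 800 equal values that were not 0. The 9 genes, the lists and the settings were chosen with earlier results of these data known. The genes named were the 9, LGALS3, the other synthesis enzymes and SREBP control genes, STARD4, up to 3 genes with the smallest p per other list, and the 5 genes most like the 9. RBFOX3, MAP2, NEFL, MBP, DCN and LUM were named after their values were seen. Alternatives included 0.1 as the pseudocount, testing every gene, raising the minimum mean to 10, quantile and median-ratio scaling, no trend, no log transformation, replicate and library set blocks, and each library left out. Figures were drawn with matplotlib 3.10.9. Some genes counted in the lists are not reported here by name.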

Additional observations from a re-analysis of the deposited data

How the results depend on the processing

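Of the 9 genes, 0 had an adjusted p under 0.05 in limma under any of the 15 alternatives, and 1, HMGCS1, had an unadjusted p under 0.05 in the reported fit. That count was 2 with no filter, 2 with values not log-transformed, and 0 to 2 when a library was left out (0 without siR-Con replicate 3, 2 without siR-GAL3 replicate 1 or siR-GAL3 replicate 2). The like counts over all genes tested were 736 of 8495 in the reported fit and 1623 of 17648 with no filter. Of 8495 genes, they were 750 with values not log-transformed and 344 without siR-Con replicate 3. They were 1249 without siR-GAL3 replicate 1 and 1388 without siR-GAL3 replicate 2. The cause was not tested. HMGCS1 was lower in all 15 alternatives, with a log2 fold change of -0.34 to -0.21 as libraries were left out. Deviations from the group means correlated at -0.17, -0.07 and 0.04 between same-numbered libraries. With 3 libraries per group, these values cannot settle whether replicate numbers pair the samples. With a replicate block the count stayed at 1 of the 9 while 6 of all genes had an adjusted p under 0.05 in limma. Over all genes that count was 0 in the reported fit, 106 when blocked on library set, and 167 without siR-GAL3 replicate 2. Both of these alternatives keep siR-GAL3 replicate 2 out of the group difference.

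List medians moved as follows, with causes not tested. Among genes with a mean of 10 or more, they were -0.0807 for the other synthesis enzymes, 0.0481 for sterol uptake, -0.0921 for neuron and 0.0303 for oligodendrocyte markers. Blocking on library set gave -0.00795 for uptake, 0.120 for neuron and -0.305 for fibroblast and endothelial markers, and dropping the filter gave -0.301 for the last. Leaving out a library gave -0.136 to -0.00455 for uptake, 0.00316 to 0.131 for neuron, 0.0427 to 0.193 for oligodendrocyte, -0.494 to -0.309 for fibroblast and endothelial markers and -0.0378 to 0.160 for progenitor markers, which were at 0.161 when blocked on library set and 0.00294 with no filter.

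Of 61 genes, 14 changed sign under some alternative, none of them at an unadjusted p under 0.05 in the reported fit. Blocking on library set gave log2 fold changes of 0.0117 for INSIG1, -0.0166 for MVK, -0.0292 for PMVK, -0.0324 for NSDHL, 0.00141 for SREBF2, 0.00812 for MBTPS1, 0.0267 for MBTPS2, -0.0729 for RNF139 and 0.00455 for RHBDF1. Leaving out a library gave -0.0587 to 0.0516 for IDI1, -0.0623 to 0.0285 for INSIG1, -0.0871 to 0.00995 for ACAT2, -0.0135 to 0.0745 for MVK, -0.0290 to 0.229 for PMVK, -0.0969 to 0.0349 for MSMO1, -0.0309 to 0.0501 for NSDHL, -0.136 to 0.00785 for SREBF2, -0.0778 to 0.0139 for MBTPS1, -0.124 to 0.0236 for MBTPS2, -0.0699 to 0.0888 for RNF139, -0.0566 to 0.0379 for RHBDF1, -0.0701 to 0.00246 for NCLN and -0.0505 to 0.0182 for PTPN9. Depth is unknown, and if the labels' saline controls are correct, glutamate and siRNA cannot be told apart.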
